A study of Homo sapiens with 9 samples.

Results

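The zinc finger genes of human chromosome 19 were followed through a dose series of ARN22089 in a melanoma cell line. The members were all protein-coding genes of the chromosome whose symbol is ZNF followed by a number and that were selected on a measured FPKM above 0 in at least 1 library. Of 246 such genes in the annotation, 228 were assembled, among the 14919 genes of all chromosomes that were named, and 18 were never assembled. ZNF557 drew attention to the family because its summed FPKM differed between treated and untreated cells, so its values are given below as a description with no test.

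WM3248 is a human melanoma cell line. Cells were treated for 24 h with ARN22089, a small molecule made to keep GTPases of the CDC42 family from binding their effectors. The groups were 0 µM (DMSO alone), 4 µM and 6 µM, with 3 libraries at each dose, all from the same line in the same medium. It is 1 line, so the data say nothing of other tumours. The descriptions do not name separate cultures, so the p-values rest on library-to-library spread that may be technical. The melanocyte markers SOX10 (103 to 160 FPKM) and DCT (55.3 to 365 FPKM) were present in every library. MITF, TYR, PMEL and TYRP1 were also above 0 in all 9, with medians of 15.6, 12.2, 9.2 and 2.73 FPKM. MLANA was above 0 in 8, with a median of 3.54 FPKM. PTPRC, PECAM1, EPCAM and KRT5 were listed at 0 in all 9, while the keratinocyte marker KRT14 was above 0 in 6 libraries (0 to 2.27 FPKM).

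Most human zinc finger genes of this kind encode a KRAB box at the amino end and a row of C2H2 fingers at the carboxyl end. The fingers read DNA, often the sequence of a transposable element, and the KRAB box recruits TRIM28 (KAP1), which brings the histone methyltransferase SETDB1 and heterochromatin proteins to the site. The genes arose by repeated tandem duplication, which is why chromosome 19 carries so many of them in clusters of close relatives. Members without a KRAB box include SCAN-domain proteins such as ZNF444 and proteins made almost wholly of fingers, such as ZNF146.

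The coding sequences of the 228 members held a median of 12 fingers, with the highest number, 31, in ZNF91. A KRAB box was found by pattern in 184 of them (80.7%), and a missing match says only that the pattern was not found. For 20 members more than 25% of the 50-base stretches of the transcript also occurred in another gene, so their values may be shared with that relative.

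A library stood apart and bears on the membership itself. Of the 27 members assembled in a single library, 23 were assembled in replicate 1 at 0 µM alone, where their FPKM values were low (0.563 to 3.25 over the 27, median 1.29). Over all genes, that library held 473 of the 1265 genes assembled in a single library, against 34 to 199 in each of the other 8. Its depth relative to the median library was 0.948, within the range of 0.802 to 1.34 over the 9 libraries, and without it the family would have 205 members in place of 228.

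The promoters of the family shared sequence that the choice of members did not use. A RefSeq promoter (GRCh38.p14, 250 bases before to 50 after the annotated start) was matched for 216 of the 246 annotated genes. The ETS-type core CCGGAAG, on either strand, lay in 45.4% of them, against 14.2% of 15843 protein-coding promoters. CCAAT lay in 53.7% of the family's promoters, against 36.4% of all, and the GC box GGGCGG in 67.6%, against 58.5%. TGACGTCA lay in 3.24% against 2.59%, and CACGTG, the E box of MITF and MYC, in 4.17% of the family's promoters and 8.88% of all. These are matches of letters, not measured binding sites.

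A fixed spacing of shared letters was found in the genes between chr19:19668153-24129968, called here the ZNF91 cluster after its best known gene, which represses SVA retrotransposons. All 29 promoters matched in that cluster held CCAAT and 21 held the ETS core. In 20 of the 29 the first base of CCAAT lay exactly 34 bases before the first base of CTTCCGG, the ETS core on the other strand, an arrangement found in 0 of the other 187 matched promoters of the family and in 0.189% of all promoters. That spacing was picked as the most frequent among these 29 promoters, so the contrast is a description with no test. The promoters of ZNF85, ZNF100 and ZNF91 are printed because their genes recur in the results, ZNF557, ZNF581 and ZNF444 because they had the smallest p-values among higher members at 6 µM. The promoter table uses 1 annotated start per gene, which for ZNF581 and ZNF444 lies inside the full span of the gene given below, downstream of its first base. Capitals mark every match to the motifs named above, and a longer run of capitals is a pair of matches that touch or overlap.

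ZNF85 (chr19:20923001-20923300, plus strand): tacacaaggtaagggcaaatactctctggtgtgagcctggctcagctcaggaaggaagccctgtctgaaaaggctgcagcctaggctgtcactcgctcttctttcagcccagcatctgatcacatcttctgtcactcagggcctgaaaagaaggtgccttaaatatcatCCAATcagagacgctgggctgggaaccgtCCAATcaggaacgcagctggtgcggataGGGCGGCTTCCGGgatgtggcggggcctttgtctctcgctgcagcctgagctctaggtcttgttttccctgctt
ZNF100 (chr19:21767530-21767829, minus strand): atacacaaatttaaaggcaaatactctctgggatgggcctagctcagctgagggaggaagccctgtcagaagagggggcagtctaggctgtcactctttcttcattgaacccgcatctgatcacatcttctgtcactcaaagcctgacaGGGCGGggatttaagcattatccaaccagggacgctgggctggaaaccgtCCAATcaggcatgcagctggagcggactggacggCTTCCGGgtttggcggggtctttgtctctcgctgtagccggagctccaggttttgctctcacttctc
ZNF91 (chr19:23395422-23395721, minus strand): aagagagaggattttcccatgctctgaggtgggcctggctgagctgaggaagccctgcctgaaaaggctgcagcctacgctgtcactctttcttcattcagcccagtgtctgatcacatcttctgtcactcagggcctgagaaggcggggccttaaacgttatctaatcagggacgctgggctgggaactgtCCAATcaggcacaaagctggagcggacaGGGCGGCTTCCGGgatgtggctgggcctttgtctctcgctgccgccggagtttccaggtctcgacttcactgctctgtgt
ZNF557 (chr19:7069453-7069752, plus strand): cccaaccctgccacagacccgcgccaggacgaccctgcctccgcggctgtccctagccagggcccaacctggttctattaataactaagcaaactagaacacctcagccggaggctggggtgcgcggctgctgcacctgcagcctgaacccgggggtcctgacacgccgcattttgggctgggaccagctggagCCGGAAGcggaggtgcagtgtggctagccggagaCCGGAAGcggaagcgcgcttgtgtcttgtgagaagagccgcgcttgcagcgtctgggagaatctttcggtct
ZNF581 (chr19:55643399-55643698, plus strand): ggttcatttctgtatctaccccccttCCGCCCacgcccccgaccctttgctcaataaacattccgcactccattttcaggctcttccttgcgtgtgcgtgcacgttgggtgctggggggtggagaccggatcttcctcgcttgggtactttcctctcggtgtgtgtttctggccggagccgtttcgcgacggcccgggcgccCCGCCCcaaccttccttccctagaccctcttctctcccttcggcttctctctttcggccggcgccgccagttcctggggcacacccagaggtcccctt
ZNF444 (chr19:56141037-56141336, plus strand): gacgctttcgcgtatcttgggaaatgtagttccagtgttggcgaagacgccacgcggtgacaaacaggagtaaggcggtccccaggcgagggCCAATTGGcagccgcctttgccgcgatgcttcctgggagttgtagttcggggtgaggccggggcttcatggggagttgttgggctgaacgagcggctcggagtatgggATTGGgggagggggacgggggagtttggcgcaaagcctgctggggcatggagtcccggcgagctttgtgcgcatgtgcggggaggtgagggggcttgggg

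The first 3 of these align along nearly their whole length. Global alignment gave 83% identity between ZNF85 and ZNF91, 80.3% between ZNF100 and ZNF91, and 82.3% between ZNF85 and ZNF100. Over all 406 pairs within the cluster the median identity was 78.7%, against 59.3% over the 5423 pairs of a promoter of the cluster with one from elsewhere in the family. ZNF557, outside the cluster, was 62.3% identical to ZNF91, and ZNF581 and ZNF444, which lie close together near the end of the long arm, were 56% identical.

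The family was expressed at low levels. Its mean summed FPKM over the 9 libraries had a median of 2.57 per gene, and 16 members reached a mean of 10. With the filter of a mean of at least 1 FPKM, 168 members were tested and 60 were not, and the tested members had a median of 3.16 FPKM, against 11.5 over all 12277 genes tested. ZNF132 (0.979 FPKM) lay just outside that limit and ZNF20 (1.07 FPKM) just inside.

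ZNF146, which encodes a protein of fingers with no KRAB box, had the highest mean. Its summed FPKM was 36.4, 52.6 and 54.3 at 0 µM, 43.9, 46.4 and 55.4 at 4 µM, then 44.7, 46.3 and 50.3 at 6 µM, so the doses overlapped throughout. ZNF581 and ZNF480 came next, with means of 24.8 and 22.4 FPKM. ZNF317 (19.9), ZNF266 (17.9), ZNF875 (17.7), ZNF585A (17.7) and ZNF787 (15.9) followed in that order of mean FPKM. Of these 8 genes ZNF581 alone had p-values under 0.05 at both doses, and ZNF787, at 15.7 to 19.4 FPKM in the 4 µM libraries against 13.5 to 14.2 FPKM at 0 µM, had a log2 difference of 0.30 ± 0.13 (SE) and a limma adjusted p of 0.47.

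The number of members assembled differed between libraries. The libraries at 0 µM held 197, 185 and 177 members, those at 4 µM 170, 173 and 158, and those at 6 µM 173, 170 and 171. Membership counts assembly in any library, and 23 of the 197 in replicate 1 at 0 µM are members through that library alone, so the higher counts at 0 µM are not read as a difference. Over all chromosomes the genes named overlapped between doses, with 12357, 12428 and 12042 at 4 µM and 12761, 12421 and 12564 at 6 µM, against 12668, 12455 and 12721 at 0 µM. The ZNF genes of other chromosomes, 234 in all, were chosen by the same rule, with 209, 209 and 214 assembled at 0 µM, 192, 191 and 188 at 4 µM, then 201, 195 and 207 at 6 µM. Counted instead by any transcript on a member's exonic bases, the doses overlapped, with 212, 193 and 192 members at 0 µM, 192, 194 and 180 at 4 µM, then 197, 193 and 193 at 6 µM. Relative depth was 0.948, 0.974 and 1.3 at 0 µM, 1.0, 0.979 and 0.802 at 4 µM, then 1.34, 1.0 and 1.1 at 6 µM, and its part in the counts was not tested.

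The summed FPKM of the family did not separate the doses. All members together had 834.1, 892.8 and 783.4 FPKM at 0 µM, 784.2, 922.3 and 867.3 FPKM at 4 µM, then 837.9, 845.2 and 842.0 FPKM at 6 µM. With the consensus exon value, FPKM averaged over the exonic bases that most assembling libraries share, the sums were 737.6, 754.0 and 742.3 at 0 µM, 730.7, 755.1 and 755.3 at 4 µM, then 796.8, 764.8 and 775.4 at 6 µM. On that value, which takes in transcripts of either strand, every library at 6 µM lay above all at 0 and 4 µM. On the fragment value, defined below, the sums at 6 µM were 2823.2, 2742.8 and 2808.2. They overlapped with those at 0 µM (2654.5, 2818.0 and 2828.4) and lay above those at 4 µM (2549.4, 2624.3 and 2734.7). The median log2 difference of the tested members was -0.05 at 4 against 0 µM and -0.02 at 6 against 0 µM, where all genes tested had medians of 0.00 and -0.03. In bulk RNA, fewer cells carrying a transcript and less transcript per cell cannot be told apart.

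With the limma fit on summed FPKM, 1 of 168 tested members passed an adjusted p of 0.05 at 4 against 0 µM, where 0.0733% of all genes did. At 6 against 0 µM it was again 1 member, against 0.31% of all genes, and at 6 against 4 µM 0 members, against 0.0244%. The member at both doses was ZNF557, whose difference led to this choice of genes, so nothing is read from these counts. With the replicate number as a block 0 members passed at either dose, against 0% of all genes at 4 µM and 0.0244% at 6 µM. The comparisons with 0 µM share the same 3 control libraries. At an unadjusted p under 0.05, 3 members were higher and 5 lower at 4 µM, where 6.25% of all genes were higher and 4.6% lower. At 6 against 0 µM 3 were higher and 8 lower, against 8.09% and 9.67% of all genes, and at 6 against 4 µM 1 was higher and 2 lower, against 1.72% and 2.96%. Differences below 0 were found in 57.7% of members at 4 µM, against 50.2% of all genes, and in 53% at 6 µM, against 53.6%.

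ZNF557 encodes a KRAB protein with 10 fingers and lies on the short arm of the chromosome (chr19:7069703-7087968, plus strand, GRCh38). Its summed FPKM was 2.69, 3.27 and 3.36 at 0 µM, 9.01, 9.63 and 9.48 at 4 µM, then 8.51, 8.905 and 9.91 at 6 µM. The mean was 9.38 ± 0.32 FPKM at 4 µM and 9.11 ± 0.73 FPKM at 6 µM, against 3.11 ± 0.37 FPKM at 0 µM (SD, n = 3 each), and neither dose overlapped with 0 µM. On the log2(FPKM + 1) scale the difference was 1.34 ± 0.14 (SE) at 4 µM and 1.30 ± 0.14 at 6 µM.

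The assembled transcripts of ZNF557 were not of the same length at these doses. Weighted by FPKM, they measured 4116, 4213 and 4317 bases at 0 µM, against 1541, 1440 and 1480 bases at 4 µM and 1512, 1627 and 1441 bases at 6 µM. The difference lay in the last exon, which was assembled to 3455, 3279 and 3421 bases at 0 µM, to 611, 551 and 582 bases at 4 µM, then to 565, 709 and 501 bases at 6 µM. The annotated last exon has 5091 bases and the coding sequence ends at its base 867, so all 6 treated libraries held a model that ended before the stop codon. In each treated library 1 to 3 further transcripts without a gene name lay within the gene, and at 0 µM there were 1, 0 and 2.

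FPKM divides fragments by length, so a fragment value (FPKM times length in kilobases, summed over the exonic bases of the gene) was set beside it. For ZNF557 it was 11.1, 13.8 and 14.5 at 0 µM, 15.6, 13.9 and 15.3 at 4 µM, then 14.3, 17.1 and 14.3 at 6 µM. The ranges overlapped: the lowest libraries at 4 and 6 µM, at 13.9 and 14.3, lay under the highest library at 0 µM, at 14.5. The log2 difference on this scale was 0.18 ± 0.14 (SE) at 4 µM and 0.21 ± 0.14 at 6 µM. On the consensus exon value, which is an average of FPKM, it was 1.37 at 4 µM and 1.33 at 6 µM, close to that on summed FPKM. Whether the transcript itself ends earlier in treated cells was not tested.

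**Figure D1:**
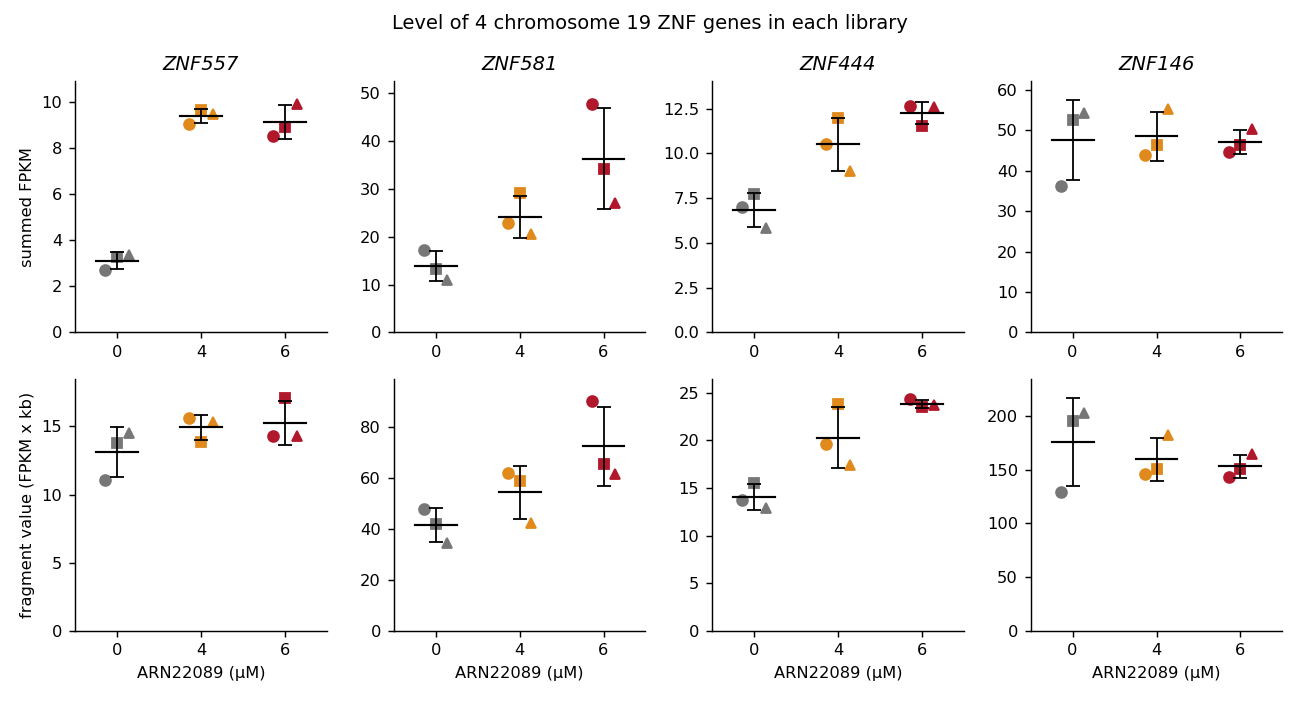
Each point is 1 library (circle, square and triangle for replicates 1, 2 and 3), at 0, 4 and 6 µM ARN22089 from left to right, with the mean as a line and the SD as a bar (n = 3). The upper row gives summed FPKM and the lower row the fragment value: ZNF557 separates treated from untreated libraries only in the upper row, ZNF581 and ZNF444 have higher means at 6 than at 0 µM in both, and ZNF146 overlaps in both.

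In other members high FPKM went with short models between libraries of 1 dose. ZNF480, a KRAB gene, had 31.5, 5.32 and 5.84 FPKM at 0 µM, 5.37, 49.1 and 59.9 FPKM at 4 µM, then 4.95, 33.7 and 5.82 FPKM at 6 µM. The 4 high libraries were those with short models, of 401 bases at 0 µM, 502 and 395 bases at 4 µM and 520 bases at 6 µM, while the other 5 had models of 4727 to 4880 bases. Its fragment value stayed between 23.4 and 38.4 in all 9 libraries. ZNF317 had 55.6 FPKM in replicate 2 at 0 µM, with a model of 1244 bases, and 13.8 to 17.5 FPKM in the other 8 libraries, with models of 3771 to 4429 bases.

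In ZNF561 FPKM was again higher where models were short, but the fragment value was lower there. Its models were short at 4 µM (927, 1009 and 990 bases) and in replicate 3 at 0 µM (1241 bases), and measured 4057 to 4922 bases elsewhere. Its summed FPKM was 7.64, 8.83 and 9.77 at 6 µM, against 14.4, 10.5 and 15.9 at 4 µM, a log2 difference of -0.57 ± 0.22 with an adjusted p of 0.953 in limma. Its fragment value was 37.6, 35.8 and 40.6 at 6 µM, against 13.4, 10.6 and 15.7 at 4 µM, a log2 difference of 1.47 ± 0.28 with an adjusted p of 0.79. No further transcript without a gene name lay within ZNF561 in any library. Whether its RNA level or only its assembly differed at 4 µM was not tested.

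**Figure D2:**
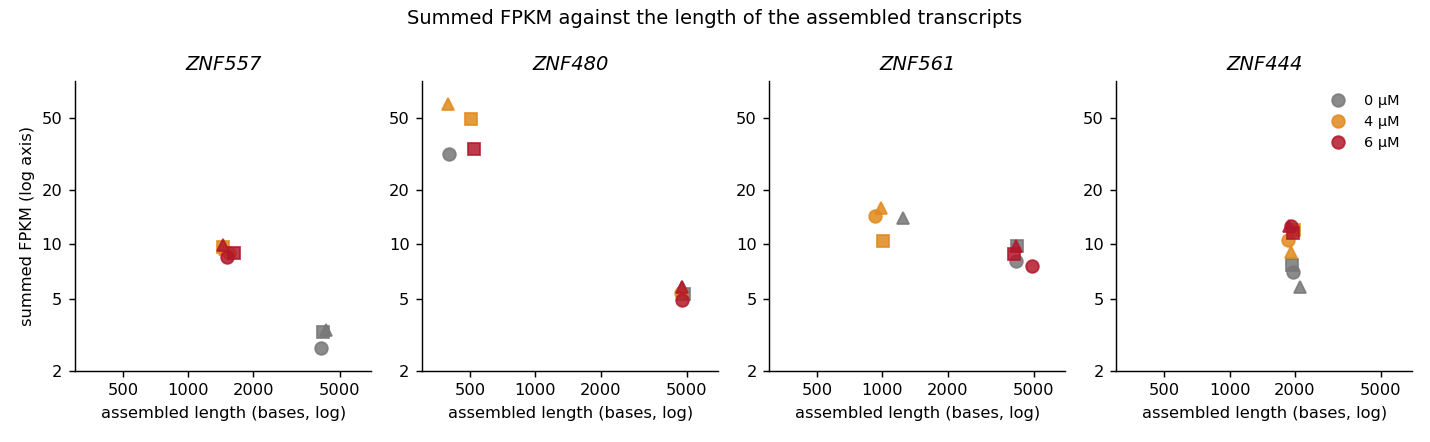
Each point is 1 library, coloured by dose and shaped by replicate, with the FPKM-weighted length of the assembled transcripts on the horizontal axis and summed FPKM on the vertical axis, both on log scales. ZNF557 and ZNF480 fall into a short, high group and a long, low group, by dose in ZNF557 and across doses in ZNF480, while all ZNF444 models lie between 1867 and 2110 bases.

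Over the family, 116 members were assembled in all 9 libraries, and in 48 of them (41.4%) the longest model was more than 2 times the shortest. The share was 40.2% over the 10613 tested genes assembled in all 9 libraries, so the family was like other genes in this. Across the 115 of these members that were tested, the difference in length and the difference in FPKM, both on a log2 scale with no pseudocount, had a Pearson correlation of -0.38 at 4 against 0 µM, -0.30 at 6 against 0 µM and -0.59 at 6 against 4 µM. With the fragment value the correlations were 0.45, 0.37 and 0.51. Both values share the model length by construction, and members are not independent replicates. The spread within a dose was smaller for the fragment value in 94 of the 115 members, with a median coefficient of variation of 12.1%, against 18.7% for FPKM.

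**Figure D3:**
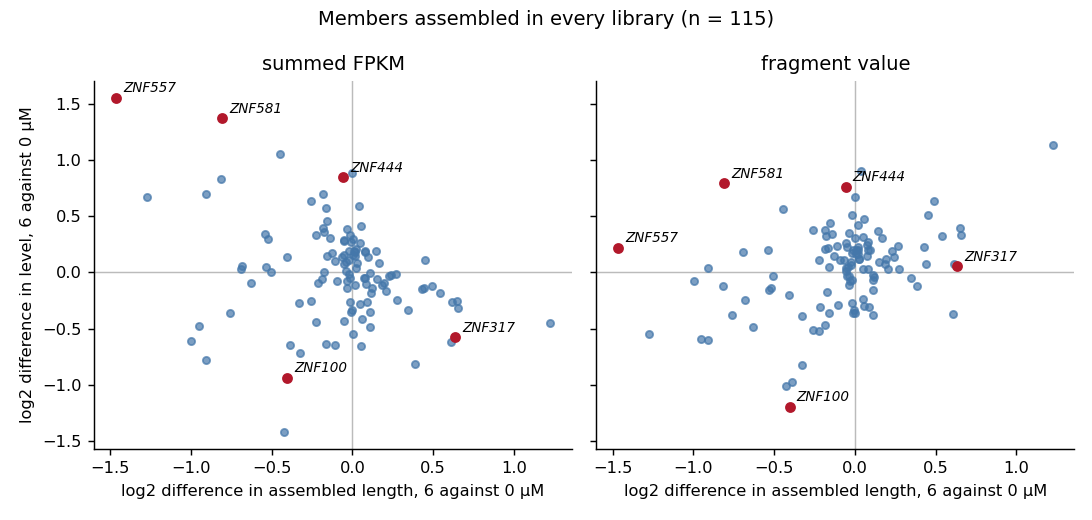
Each point is 1 of the 115 tested members assembled in every library. The log2 difference (no pseudocount) in assembled length, 6 against 0 µM, is on the horizontal axis, and that in summed FPKM (left) or in the fragment value (right) is on the vertical axis. ZNF557 lies at the upper left edge for FPKM and near the zero line for the fragment value, while ZNF444 lies above 0 in both.

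On the fragment value, a choice made after the data were seen, 0 of 168 tested members passed the limma threshold at 4 against 0 µM, where 0.0163% of all genes did, and 5 members were higher and 20 lower at an unadjusted p under 0.05. Of all genes, 7.39% were higher and 8.83% lower at that unadjusted p. At 6 against 0 µM, 4 members passed, 2 higher and 2 lower, against 6.72% of all genes, 2.44% higher and 4.28% lower. At an unadjusted p under 0.05, 11 were higher and 16 lower, against 10.1% and 16.2% of all genes. With the replicate block 10 members passed at 6 µM, 5 in each direction, against 9.73% of all genes, 3.56% higher and 6.17% lower, and 0 passed at 4 µM, against 0.0163%. At 6 against 4 µM 0 members passed, against 0.0163% of all genes, with 5 higher and 2 lower at an unadjusted p under 0.05, against 1.34% and 3.29%. Among other settings at 6 against 0 µM, 4.19% of all genes passed with the consensus exon value, 5.67% with that value and the block, and 0.362% on FPKM with no filter, where ZNF43 was added to ZNF557.

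ZNF444, a SCAN-domain zinc finger gene (chr19:56132553-56160893, plus strand), was higher in treated cells whichever value was used. Its summed FPKM was 7.01, 7.72 and 5.82 at 0 µM, 10.5, 11.98 and 9.04 at 4 µM, then 12.7, 11.5 and 12.6 at 6 µM, and every treated library lay above every one at 0 µM. At 6 µM it averaged 12.3 ± 0.64 FPKM, against 6.85 ± 0.96 FPKM at 0 µM (SD, n = 3 each). The log2 difference at 6 against 0 µM was 0.76 ± 0.15 with a limma adjusted p of 0.0673 on FPKM, and 0.72 ± 0.14 with an adjusted p of 0.0279 on the fragment value. At 4 against 0 µM the FPKM difference was 0.55 ± 0.15 with an adjusted p of 0.329. Within each replicate number its FPKM difference at 6 against 0 µM was 0.77, 0.52 and 0.99.

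ZNF581, a short protein with 4 fingers and no KRAB box found (chr19:55635003-55645623, plus strand), had higher mean FPKM at each higher dose, and neither 4 against 0 µM nor 6 against 4 µM passed the threshold. Its summed FPKM was 17.3, 13.3 and 11.02 at 0 µM, 22.9, 29.1 and 20.5 at 4 µM, then 47.7, 34.2 and 27.0 at 6 µM, and every treated library lay above every one at 0 µM on this value. Its fragment value was 48.0, 41.8 and 34.7 at 0 µM, 62.0, 58.7 and 42.5 at 4 µM, then 90.4, 65.6 and 61.6 at 6 µM, so 4 µM overlapped with 0 µM and 6 µM did not. That value takes in other transcripts on its bases. From models named ZNF581 alone it was 22.47, 35.35 and 34.71 at 0 µM and 60.43, 45.29 and 32.49 at 6 µM, with overlap. Those models measured 1302, 2651 and 3150 bases at 0 µM, against 1266, 1325 and 1205 bases at 6 µM. The log2 difference at 6 against 0 µM was 1.31 ± 0.25 on FPKM with a limma adjusted p of 0.0629, and 0.78 ± 0.20 on the fragment value with an adjusted p of 0.0544, or 0.0177 with the replicate block. ZNF580 lies inside it on the same strand, so how the 2 genes share these transcripts is uncertain.

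ZNF579, with 8 fingers and no KRAB box found, lies near both. Its fragment value was 7.99, 8.96 and 8.17 at 0 µM, 13.9, 10.8 and 11.8 at 4 µM, then 15.4, 12.6 and 12.2 at 6 µM, with no overlap between treated and untreated libraries. The fragment value rose at 6 against 0 µM by a log2 difference of 0.61 ± 0.15, with a limma adjusted p of 0.048. On summed FPKM the same comparison gave 0.68 ± 0.30 with an adjusted p of 0.284.

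ZNF358 and ZNF875, like ZNF581, passed with the fragment value and the replicate block, and not with the fragment value alone. The 5 members that passed as lower with the block are not listed one by one. ZNF358 was assembled in 1 of 3 libraries at 0 µM, and its fragment value was 19.7, 24.2 and 16.1 at 0 µM, 44.9, 41.5 and 27.8 at 4 µM, then 54.5, 44.4 and 28.5 at 6 µM. Where it was not assembled, that value came wholly from transcripts on its exonic bases that were not named ZNF358. All 6 treated libraries were above the 3 untreated ones, and at 6 against 0 µM the adjusted p was 0.0188 with the block and 0.0581 without. ZNF875, a KRAB gene, had fragment values of 51.4, 52.2 and 79.6 at 0 µM, 73.2, 77.0 and 79.1 at 4 µM, then 88.5, 95.5 and 94.5 at 6 µM, with adjusted p-values at 6 against 0 µM of 0.0456 with the block and 0.0559 without.

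The 2 members that passed as lower on the fragment value at 6 µM, without the block, both lie in the ZNF91 cluster. ZNF100, a KRAB gene with 11 fingers, had fragment values of 13.1, 12.2 and 12.1 at 0 µM, 6.22, 5.88 and 10.7 at 4 µM, then 4.85, 4.80 and 6.94 at 6 µM. Its mean was 5.53 ± 1.22 at 6 µM, against 12.5 ± 0.55 at 0 µM (SD, n = 3 each), a log2 difference of -1.06 ± 0.23 with a limma adjusted p of 0.0378. ZNF85, a KRAB gene with 15 fingers, had 6.77, 4.67 and 4.56 at 0 µM, 1.62, 1.54 and 3.54 at 4 µM, then 1.25, 0 and 1.81 at 6 µM, a log2 difference at 6 against 0 µM of -1.76 ± 0.43 with an adjusted p of 0.049. On summed FPKM the differences of ZNF100 (-0.61 ± 0.25) and ZNF85 (-1.63 ± 0.55) had adjusted p-values of 0.259 and 0.183.

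These 4 calls rested on few libraries. Without replicate 1 at 0 µM, or replicate 1 or 2 at 4 µM, ZNF444 alone passed on the fragment value. Without replicate 2 at 0 µM, or replicate 1 or 2 at 6 µM, no member did. Without replicate 3 at 0 µM ZNF875 alone passed. ZNF444 and ZNF100 passed without replicate 3 at 4 µM, with ZNF714 and ZNF581, and without replicate 3 at 6 µM, with ZNF85 and ZNF358. ZNF579 passed in none of these fits. Leaving out replicate 1 or replicate 2 at 6 µM left 9 and 26 calls over all genes.

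Other genes of the cluster also had lower values in treated cells. The cluster has 37 annotated members, of which 31 were assembled and 15 were tested. The split of the chromosome into clusters used only gaps of more than 1 Mb between members, but this cluster was picked out after the values had been seen, so its values are a description with no test. On the fragment value all 15 tested genes were lower at 4 than at 0 µM and 13 of 15 at 6 than at 0 µM, with median log2 differences of -0.46 and -0.53, where all genes tested had medians of -0.03 and -0.05 and 53.3% and 55.1% lower values. A uniform direction at 4 µM was also found in cluster 3 of the family (chr19:11483429-12633834), where 13 of 13 tested genes were lower with a median of -0.14, but at 6 µM 6 of those 13 were lower, with a median of 0.02. On summed FPKM 12 and 13 of 15 were lower, with medians of -0.29 and -0.51.

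Values that did not overlap were also frequent there. At 6 µM the fragment values of 10 of the 15 genes lay wholly under those at 0 µM, against 19.5% of all genes tested and 18 of the 153 tested members outside the cluster. At 4 µM 9 of the 15 did so, against 12% of all genes. In none of the 15 did the treated values lie wholly above, at either dose, against 13% of all genes at 6 µM and 10.1% at 4 µM. On summed FPKM 9 of the 15 were wholly lower at 6 µM, against 14% of all genes and 13 of the 153. At 4 µM only 3 of the 15 were so on that value, against 8.42% of all genes and 17 of the 153.

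**Figure D4:**
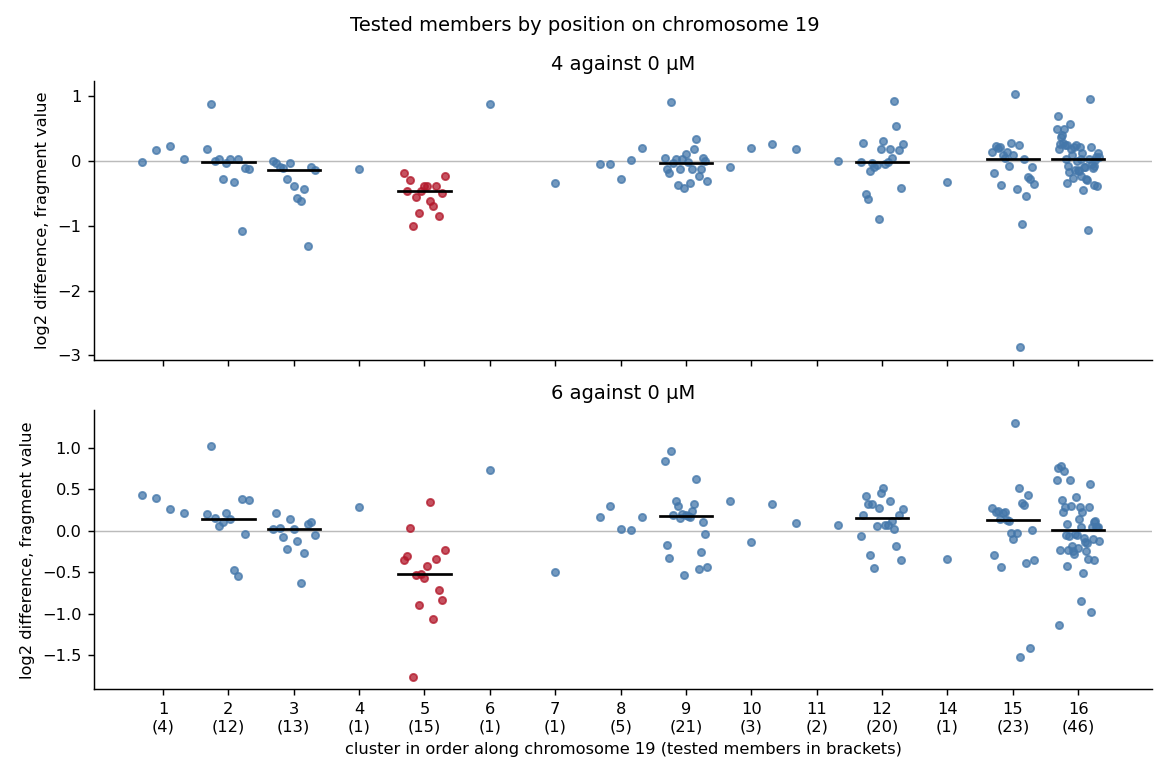
Each point is 1 tested member, placed in its cluster in order along chromosome 19, with the log2 difference in the fragment value at 4 against 0 µM (upper) and 6 against 0 µM (lower). Lines are medians of clusters with at least 10 tested members. Cluster 5 (red), the ZNF91 cluster, has medians of -0.46 and -0.53, and the other medians lie between -0.14 and 0.18.

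The genes of the ZNF91 cluster can be read one by one. ZNF714 had fragment values of 13.2, 8.90 and 11.5 at 0 µM, 4.96, 4.92 and 8.46 at 4 µM, then 5.51, 4.55 and 6.56 at 6 µM, and all 6 treated libraries lay under all at 0 µM. ZNF675, which encodes an inhibitor of TRAF6 signalling, had 11.2, 8.87 and 6.45 at 0 µM, 3.37, 4.71 and 5.25 at 4 µM, then 5.07, 4.30 and 5.32 at 6 µM, again with no overlap. ZNF726, a KRAB gene, had 5.49, 3.52 and 4.04 at 0 µM, 3.08, 3.16 and 2.13 at 4 µM, then 2.49, 1.10 and 2.52 at 6 µM, all treated values lower.

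ZNF91 itself had fragment values of 13.7, 9.78 and 8.19 at 0 µM, 6.69, 6.70 and 9.96 at 4 µM, then 7.78, 7.02 and 9.11 at 6 µM, with overlap at both doses. ZNF101, at the short-arm edge of the cluster, had 21.7, 18.1 and 20.0 at 0 µM, 17.2, 16.4 and 19.02 at 4 µM, then 15.4, 13.7 and 17.3 at 6 µM, so the doses overlapped at 4 µM and not at 6 µM. The exceptions at 6 µM were ZNF506 and ZNF493, with means of 10.2 and 2.78 at 6 µM, against 9.94 and 1.80 at 0 µM.

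Replicate 1 at 0 µM was high in this cluster. It had all 31 assembled members, against 13 to 18 in the other 8 libraries, and 11 of them were assembled there alone. The summed fragment value of the cluster was 224.3, 151.6 and 146.9 at 0 µM, 97.7, 107.4 and 126.2 at 4 µM, then 106.5, 97.4 and 124.4 at 6 µM, so the other 2 untreated libraries also lay above every treated one. Without replicate 1 at 0 µM the medians of the 15 tested genes were -0.46 at 4 µM and -0.50 at 6 µM, with 15 and 14 of 15 genes lower. Over all 31 assembled genes, 31 were lower at 4 µM and 29 at 6 µM with that library, and 21 and 18 without it, where a further 10 were at 0 in all remaining libraries of both doses.

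Within replicate numbers, which share a date in their descriptions, the median difference in the fragment value of the 15 genes at 6 against 0 µM was -0.63, -0.71 and -0.24, and at 4 against 0 µM it was -0.67, -0.52 and -0.20. It was negative in all 3 numbers at both doses, smallest in number 3. On summed FPKM the 4 µM difference in number 3 was 0.13.

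**Figure D5:**
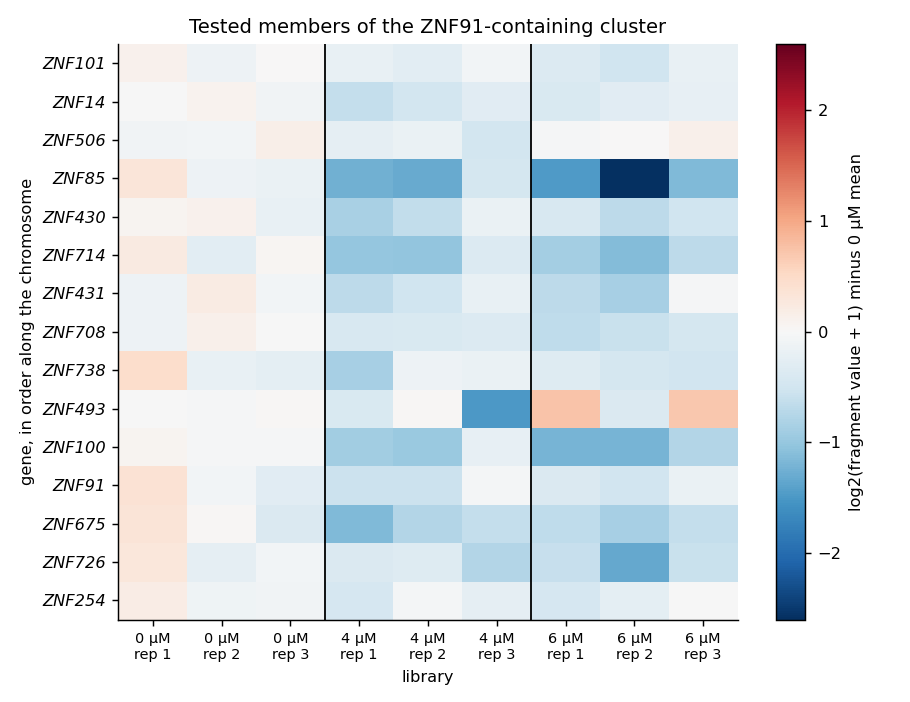
Rows are the 15 tested genes of the ZNF91 cluster in order along the chromosome, and columns are the 9 libraries. Colour gives log2(fragment value + 1) minus the mean of the gene over the 3 libraries at 0 µM, with blue for lower and red for higher. ZNF85 has the darkest cell, in replicate 2 at 6 µM, and ZNF493 is red in 2 of 3 libraries at 6 µM.

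Some members were listed at 0 throughout a dose, so no fold is given for them. ZNF43, also of the ZNF91 cluster, had 2.26, 1.35 and 2.07 FPKM at 0 µM and was listed at 0 in all 6 treated libraries, although transcripts on its exonic bases gave fragment values of 1.68 to 3.98 there, against 3.57 to 7.74 at 0 µM. ZNF28, a KRAB gene, had 3.80, 3.36 and 3.02 FPKM at 0 µM, was listed at 0 in all libraries at 4 µM and had 3.46 FPKM in replicate 3 at 6 µM. Its limma adjusted p at 4 against 0 µM was 0.294.

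ZNF850, ZNF793 and ZNF611 were listed at 0 in all libraries at 6 µM and had 1.48 to 1.72, 0.956 to 1.18 and 0.785 to 1.502 FPKM at 0 µM. ZNF154, whose promoter is known to be methylated in many tumours, had the opposite pattern, with 3.29, 1.30 and 1.71 FPKM at 6 µM, 2.04 FPKM in replicate 2 at 4 µM, and 0 in the other libraries. All 4, like ZNF43, had means under 1 FPKM over the 9 libraries and were not tested.

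The other members with small p-values on summed FPKM did not pass the threshold. At 4 against 0 µM the log2 differences were -0.92 ± 0.38 for ZNF506, -1.07 ± 0.46 for ZNF551, -1.48 ± 0.65 for ZNF587B and -0.49 ± 0.22 for ZNF599, with limma adjusted p-values of 0.441 to 0.46. ZNF584 (0.68 ± 0.31), ZNF579 (0.64 ± 0.30) and ZNF468 (-0.99 ± 0.46) had adjusted p-values of 0.472 to 0.479. On the fragment value the difference of ZNF584 was only 0.06, while ZNF579 had 0.49 and ZNF468 -0.97. At 6 against 0 µM ZNF304, which with TRIM28 silences tumour suppressor genes in colorectal cancer cells, had a log2 difference of -1.27 ± 0.49 on FPKM and an adjusted p of 0.235, and the opposite sign on the fragment value, 0.61 ± 0.47. ZNF671 had -0.82 ± 0.35 on FPKM, with an adjusted p of 0.272, and -0.08 ± 0.26 on the fragment value.

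Between 6 and 4 µM the smallest p-values belonged to ZNF431, ZNF561, ZNF419, ZNF814, ZNF671 and ZNF581, all with a limma adjusted p of 0.953 on summed FPKM. ZNF431 had 0, 0 and 2.01 FPKM at 6 µM, against 1.52, 4.47 and 2.29 FPKM at 4 µM, and its fragment values overlapped. ZNF419 had 7.18, 6.25 and 6.35 FPKM at 6 µM, against 3.57, 4.63 and 5.67 FPKM at 4 µM, with no overlap.

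Members with and without a KRAB match had medians near 0. On summed FPKM the 133 tested members with a KRAB match had median log2 differences of -0.07 at 4 µM and -0.04 at 6 µM against 0 µM, and the 35 without had 0.04 and 0.08. On the fragment value the medians were -0.09 and 0.06 with a match, and 0.03 and 0.09 without. The difference between these groups was not tested.

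The partners of KRAB proteins were measured beside them. TRIM28, the shared cofactor, had 237.4, 159.4 and 138.3 FPKM at 0 µM, 145.5, 172.8 and 129.1 FPKM at 4 µM, then 173.2, 152.3 and 150.2 FPKM at 6 µM, and SETDB1 had 28.9, 14.7 and 10.3 FPKM, 17.1, 9.38 and 35.6 FPKM, and 17.2, 18.7 and 21.0 FPKM at the same doses. Both overlapped between all doses, and at 6 against 0 µM their limma adjusted p-values were 0.777 and 0.87. Of the 29 cofactor genes listed, all tested, 0 passed on summed FPKM in any comparison, where 2 were higher and 3 lower at an unadjusted p under 0.05 at 4 µM, against 6.25% and 4.6% of all genes. At 6 against 0 µM 1 was higher and 8 lower, against 8.09% and 9.67% of all genes, and at 6 against 4 µM 0 were higher and 2 lower, against 1.72% and 2.96%.

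On the fragment value 3 of the 29 cofactor genes passed at 6 against 0 µM, all lower, where 6.72% of all genes passed and 4.28% were lower. CBX1, a heterochromatin protein of the HP1 family, had a log2 difference of -0.56 ± 0.13, CHD4, the ATPase of the NuRD complex, -0.43 ± 0.10, and DNMT1, the maintenance DNA methyltransferase, -0.84 ± 0.18, with limma adjusted p-values of 0.0387, 0.0451 and 0.0377. The median over the 29 was -0.31 on that scale, where all genes tested had -0.05.

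Set beside other genes, the family's medians on summed FPKM were low on its own chromosome. The 642 other protein-coding genes of chromosome 19 that were tested had median log2 differences on summed FPKM of 0.16 at 4 µM and 0.08 at 6 µM against 0 µM, with 31.5% and 41.4% lower, against -0.05 and -0.02 with 57.7% and 53% lower in the family. Of these other genes 1 passed at each dose, higher in both. The 187 tested ZNF genes of other chromosomes had medians of -0.02 and -0.03, with 0 passing at 4 µM and 1, higher, at 6 µM. Among 17 listed C2H2 genes of chromosome 19 with other names, 9 were tested, 0 passed, and the medians were -0.13 and -0.18. On the fragment value the family's medians were -0.04 at 4 µM and 0.06 at 6 µM, with 57.7% and 41.1% lower. The other protein-coding genes of chromosome 19 had 0.14 and 0.11 on that value, with 30.7% and 38.8% lower. The 2 groups thus lay closer at 6 µM on that value. None of these differences between gene groups was tested.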

How the data were processed

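RNA of 9 libraries was measured by poly-A RNA-seq. Per the submitters' processing notes, the tools included TopHat2 2.1, Bowtie2 2.2.7 and Cufflinks 2.2.1. The deposited attribute column (text, handled as an other unit) holds the FPKM that Cufflinks computed for the authors for each transcript, assembled separately in each library, with no gene names. Those notes name GRCh37, but of 4800 chromosome 19 plus-strand introns only 102 (2.12%) have GT and AG ends there, and all coordinates given here are GRCh38.

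Of 193769 spliced transcripts, 184835 (95.4%) were named by same-strand overlap with RefSeq genes and intron lengths shared with GENCODE (Python 3.11.15, pandas 2.3.3). Single-exon transcripts counted if 50% or more of their length fell in exactly 1 gene that was never assembled with introns. Strand came from splice sites, so overlapping and antisense genes are uncertain. FPKM was summed per gene; an exact 0 can be a failed assembly. The fragment value, added after the data were seen, sums FPKM times length in kilobases over a gene's exonic bases, for all same-strand or unstranded transcripts. Cufflinks divides by an effective length, so this only approximates the fragment number, least well for short transcripts. Depth in reads is unknown, so no counting interval is given.

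The filter kept 12277 genes, those averaging 1 FPKM or more, for tests on log2(FPKM + 1), which understates changes of low genes. The 9 libraries entered 1 limma 3.58.1 fit (R 4.3.3, trended variance), with Benjamini-Hochberg adjustment over all genes and a threshold of 0.05. On simulated data with the same genes and library number, for 6 against 0 µM, 33% of genes changed by a log2 difference of 1, 76% of those changed by 2, and 0.0414% of unchanged genes were called. The changed genes were drawn only from those with a mean log2(FPKM + 1) above 2, so the first 2 rates do not cover members below that level. Libraries with the same number share a date in their descriptions, which pairs them across doses; deviations from the dose means correlated at -0.000687 to 0.127 for the same number and -0.086 to 0.00991 for different numbers. The fit had no block; the blocked fit is an alternative.

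Named genes were ZNF557, members past the threshold, the 12 smallest p-values at 4 and at 6 µM against 0 µM, the 6 smallest at 6 against 4 µM, the 8 highest means, and members at 0 throughout 1 dose and above 0 throughout another. Members, lists and clusters were chosen with earlier results of these data known. Zinc fingers and KRAB boxes were counted by a pattern search of GENCODE coding sequences, and promoters are those of RefSeq.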

Additional observations from a re-analysis of the deposited data

How the results depend on the processing

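The 1 member called at 4 against 0 µM and at 6 against 0 µM became 0 in both with the replicate block, which uses the pairing of libraries by number, and 0 at 4 µM with the fragment value, blocked or not. At 6 µM the count was 2 with no filter on low values, 3 with the consensus exon value, 5 with that value and the block, 4 with the fragment value and 10 with the fragment value and the block. With a library left out it ran from 0 to 1 at 4 µM and from 0 to 2 at 6 µM; on the fragment value the 4 at 6 µM ran from 0 to 4. Cofactor genes called at 6 µM were 1 with the consensus exon value, 3 with that value and the block, 3 with the fragment value and 4 with it and the block, against 0. The median difference of the members moved to -0.13 with no filter and 0.22 with TPM at 4 µM, and to -0.09, 0.21 and 0.06 (fragment value, blocked or not) at 6 µM; at 6 against 4 µM it was 0.06. With TPM the medians of all genes were 0.32 at 4 µM and 0.24 at 6 µM, against 0.00 and -0.03. TPM divides by the FPKM sum of the library, which was 1061112 in replicate 3 at 0 µM and 587999 to 689699 in the others. With a library left out the medians ran from -0.10 to -0.02 at 4 µM, from -0.05 to 0.02 at 6 µM, and from -0.01 to 0.05 at 6 against 4 µM. Members with a consensus exon value above 0 averaged 197.3, 186.0 and 191.7 per library at 0, 4 and 6 µM, against 186.3, 167.0 and 171.3 assembled, and their sums 744.6, 747.0 and 779.0 FPKM, against 836.8, 857.9 and 841.7. Signs turned for ZNF304 at 6 against 0 µM (0.41 with the consensus exon value, 0.61 with the fragment value) and, at 6 against 4 µM, for ZNF561 (1.27 and 1.47), ZNF557 (0.02 with the fragment value, 0.00 without replicate 1 at 6 µM) and ZNF671 (0.00 with the fragment value). The cause of these moves was not tested. The consensus exon value averages FPKM over the bases that 50% or more of the assembling libraries hold. It takes in every transcript on those bases, of either strand and whether or not named for the gene. The fragment value, and the block with it or with the consensus exon value, were chosen after the data were seen. Depth in reads is unknown.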
